A study of Mus musculus with 5 samples.

Results

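Wfs1 and 9 genes of the unfolded protein response were examined in mouse tibialis anterior (TA), a fast-twitch muscle of the lower leg. Wfs1 was chosen by its higher level in libraries labelled skmNrip1-/- than in WT control libraries, so that difference is given as a description with no test. The other 9 genes were named for their roles, and the question was whether the stress sensors and their targets follow Wfs1. The genes are the 10 rows with these names among the 17015 genes of the deposited table, and all 10 passed the minimum of 0.5 FPKM on the mean level. The unit, FPKM, divides fragments by transcript length and by library size, so levels of different genes can be compared per length.

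RNA-seq was performed on TA of 8-week-old male mice, with 3 WT control libraries and 2 libraries labelled skmNrip1-/-. In skmNrip1-/- mice, Nrip1, which encodes the nuclear receptor coregulator RIP140, is deleted by Cre recombinase under the promoter of myogenin, a gene of differentiating muscle cells, so other cells of the tissue keep the gene. Floxed Nrip1 mice (C57BL/6J) were crossed with Cre carriers (C57BL/6JN), and littermates without Cre served as controls in the study. The labels name no treatment. The labels do not say that replicates came from separate mice, so the p-values measure the spread between these libraries.

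At the level of the whole gene, the targeted gene went against its label, since Nrip1 was at 4.64, 7.69 and 6.55 FPKM in WT control and at 25.3 and 22.5 FPKM in the libraries labelled skmNrip1-/-. The deleted exon holds the coding sequence, and a single value per gene does not separate it from the remaining exons. Each direction below therefore rests on the labels. All 7 markers of the skeletal muscle fibre were above 0 in every library. Absolute sequencing depth is unknown, because FPKM keep no counts, and no counting interval is given. The FPKM of a library summed to 1145000, 1031000 and 969100 in WT control. The sums were 1288000 and 1286000 in the libraries labelled skmNrip1-/-, both above every WT control library.

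The endoplasmic reticulum (ER) folds secreted and membrane proteins, and in muscle a specialised form of it, the sarcoplasmic reticulum, stores calcium. When unfolded proteins build up, 3 sensors in the ER membrane, IRE1 (Ern1), PERK (Eif2ak3) and ATF6, signal to the nucleus. IRE1 splices the mRNA of the transcription factor Xbp1, PERK slows translation and favours that of Atf4, and ATF6 is cut to release a transcription factor. Their targets include the ER chaperones and, under lasting stress, Ddit3 (CHOP). Wfs1 encodes wolframin, an ER membrane protein known from Wolfram syndrome and for its part in ER calcium and in restraining ER stress signals. Splicing of Xbp1, cutting of ATF6 and phosphorylation in the PERK pathway are not measured by gene-level FPKM.

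The ER stress response element (ERSE) is a promoter motif through which ATF6 and XBP1 act, with CCAAT and CCACG set 9 bases apart. It was looked for as an exact match on both strands in the 250 bases before each RefSeq gene start (GRCm38.p6). Of the 10 genes, 9 matched an entry there and Atf6 did not. Hspa5, Hsp90b1 and Calr, the 3 ER chaperones among the genes, each held it, and Hsp90b1 held it 2 times. The windows of Wfs1, Ern1, Eif2ak3, Xbp1, Atf4 and Ddit3 did not. Over all 32851 promoter windows, 0.113% held the motif. The matches are shown because, of the 9 genes with an entry, only the chaperones held the exact letters. Near matches were not counted, such as CGTGC and ATTGG set 9 bases apart in the window of Ddit3. The motif is in capitals with 5 bases on each side, 5′ to 3′ on the strand of the gene.
Hspa5, chr2:34772020-34772048, plus strand: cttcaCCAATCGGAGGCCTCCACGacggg
Hsp90b1, chr10:86705633-86705661, minus strand: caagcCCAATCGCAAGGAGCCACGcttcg
Hsp90b1, chr10:86705528-86705556, minus strand: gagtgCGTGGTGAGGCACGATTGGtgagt
Calr, chr8:84847070-84847098, minus strand: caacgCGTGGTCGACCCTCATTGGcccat
The second match of Hsp90b1 and that of Calr lie in the reverse orientation, so CGTGG comes first. Relative to the gene start, the matches begin at -65 in Hspa5, -212 and -107 in Hsp90b1 and -162 in Calr. A match of letters is not a measurement of binding.

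The same motif was found in the windows of 6 tested genes from the lists of ER proteins described below. These were Canx and Pdia6, a lectin chaperone and a disulfide isomerase, Dnajc3 and Creld2, Ero1b (an oxidase of the ER, named Ero1lb in the table) and Syvn1, a ubiquitin ligase. They are shown with the same capitals, so that their spacers can be set beside those of the chaperones above.
Canx, chr11:50325795-50325823, minus strand: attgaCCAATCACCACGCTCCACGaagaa
Pdia6, chr12:17266486-17266514, plus strand: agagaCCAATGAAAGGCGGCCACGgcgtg
Dnajc3, chr14:118937822-118937850, plus strand: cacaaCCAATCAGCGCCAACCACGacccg
Creld2, chr15:88819515-88819543, plus strand: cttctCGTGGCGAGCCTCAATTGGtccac
Ero1b, chr13:12565677-12565705, plus strand: ggcctCGTGGTCCCGCCTCATTGGccgcc
Syvn1, chr19:6046527-6046555, plus strand: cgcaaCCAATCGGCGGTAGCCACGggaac
All 15 tested genes with an ERSE include these 6 and the 3 chaperones above. Of the 15, 11 had a difference below 0, with a median of -0.13 on the log2 scale. The median over all 12148 genes tested was -0.00054. None of the 15 was called by limma, where 0.453% of all genes tested were. The unadjusted p was 0.05 or less for 3, all lower, where 5.33% of all genes tested were lower with such a p. Other stress motifs, named ERSE-II, UPRE and CARE, were also searched in the promoter windows. ERSE-II was held by 6 tested genes, with a median of 0.0021 and 3 below 0. UPRE was held by 82, with a median of -0.039 and 46 below 0. CARE was held by 220, with a median of 0.0027 and 108 below 0, and 2 of these were called, both higher. ERSE thus had the lowest median of the motifs searched.

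Wfs1 (ENSMUSG00000039474, chromosome 5, 36966104 to 36989205 on GRCm38, minus strand) had levels of 21.7, 26.6 and 28.3 FPKM in the WT control libraries, in replicate order. The libraries labelled skmNrip1-/- stood at 62.8 and 59.9 FPKM. Both of these libraries were above every WT control library. The means were 25.5 ± 3.45 FPKM (SD, n = 3) and 61.3 ± 2.02 FPKM (SD, n = 2), a ratio of 2.40. The log2 difference was 1.27. No other gene annotated in GENCODE M21 overlaps Wfs1.

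**Figure D1:**
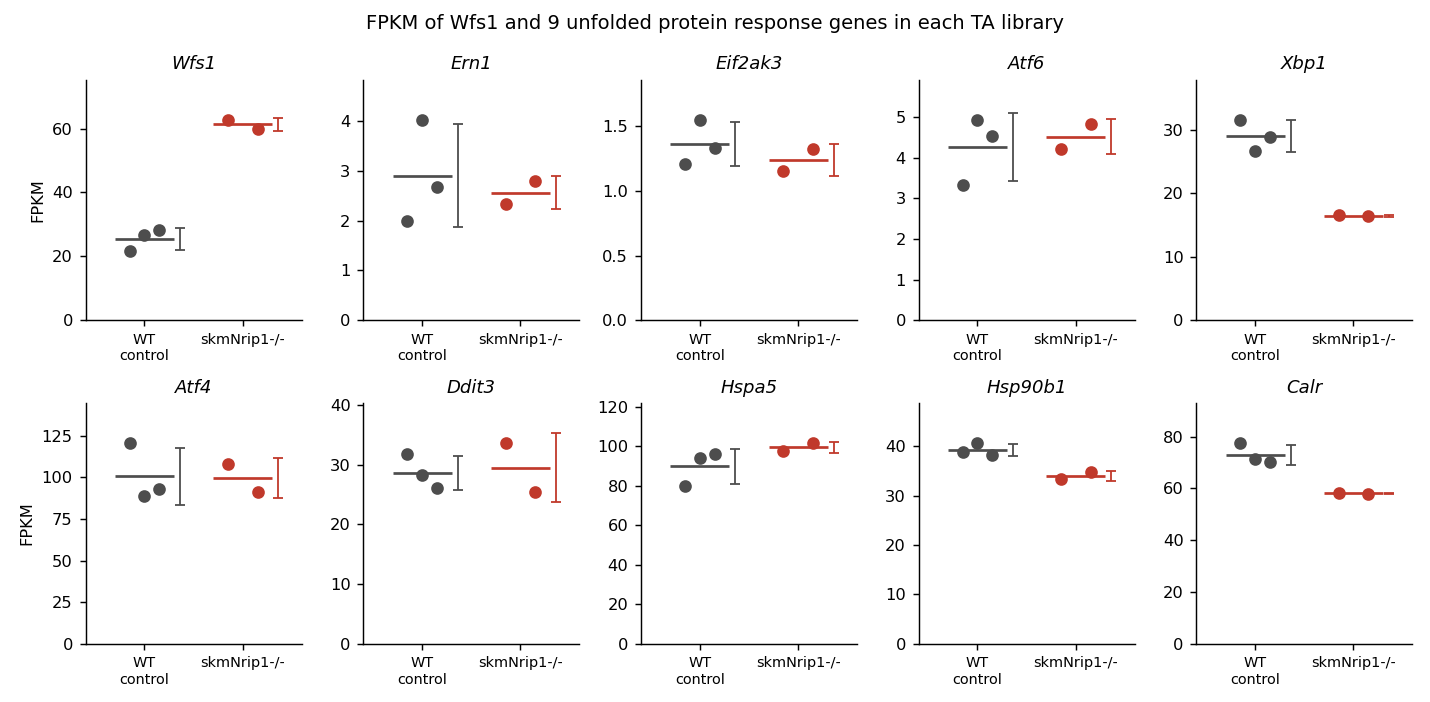
FPKM of each gene (y axis, linear from 0) in each library (points), by group (x axis), with group means (horizontal lines) and SD (bars, n = 3 WT control and n = 2 labelled skmNrip1-/-). Wfs1 stands at 59.9 FPKM or more in the libraries labelled skmNrip1-/- and at 28.3 or less in WT control, while Xbp1 stands at 16.5 or less against 26.6 or more.

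Differences were tested with limma on log2(FPKM + 0.1) over 12148 genes, those whose mean reached 0.5 FPKM, and p-values were adjusted over all of them by the Benjamini-Hochberg method. To be called, a gene needed both an adjusted p no higher than 0.05 and at least a 1.2-fold difference. On this scale the change of genes at low FPKM is understated. Of the 9 genes other than Wfs1, 1 was called, Xbp1, and it was lower. Of all genes tested, 0.453% were called in either direction and 0.0823% were called lower. An unadjusted p of 0.05 or less was found for 2 of the 9, Xbp1 and Calr, both lower, where 11.9% of all genes tested had one in either direction and 5.33% had one with a lower level. The libraries of the groups did not overlap for 4 of the 9, against 30.2% of all genes tested. For 3 of these 4 the libraries labelled skmNrip1-/- were below WT control, against 14.4% of all genes tested. These counts describe 9 genes named with earlier results known.

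The 3 sensors were at low levels, and none of them was called. Ern1 (ENSMUSG00000020715, chromosome 11, 106394650 to 106487852), the gene of IRE1, was at 2.0, 4.02 and 2.68 FPKM in WT control and at 2.33 and 2.79 FPKM in the libraries labelled skmNrip1-/-. Both of the latter lay within the WT control range, which was the widest of the 10 genes relative to its mean, with a coefficient of variation of 35.5%. The log2 difference of Ern1 was -0.12 with a 95% interval from -0.80 to 0.56 (adjusted p = 0.908 from limma).

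Eif2ak3 (ENSMUSG00000031668, chromosome 6, 70844515 to 70905245) encodes PERK, the kinase that phosphorylates the translation factor eIF2α. It was at 1.21, 1.55 and 1.33 FPKM in WT control and at 1.15 and 1.32 FPKM in the libraries labelled skmNrip1-/-, the lowest level of the 10 genes. The groups overlapped, with a log2 difference of -0.13 and a 95% interval from -0.59 to 0.33 (adjusted p = 0.856 from limma). An annotated antisense transcript, Gm43292, overlaps exons of Eif2ak3, and its level was not analysed here.

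Atf6 (ENSMUSG00000026663, chromosome 1, 170704674 to 170867771), the membrane-bound transcription factor, was at 3.33, 4.94 and 4.53 FPKM in WT control and at 4.21 and 4.84 FPKM in the libraries labelled skmNrip1-/-. Again both libraries lay within the WT control range. The log2 difference was 0.10 with a 95% interval from -0.36 to 0.55 (adjusted p = 0.892 from limma). For all 3 sensors the interval allows a change in either direction.

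The transcription factors downstream of the sensors did not move together. Xbp1 (ENSMUSG00000020484, chromosome 11, 5520659 to 5525893, plus strand), the factor whose mRNA IRE1 splices, was at 31.5, 26.6 and 28.8 FPKM in WT control. It was at 16.5 and 16.3 FPKM in the libraries labelled skmNrip1-/-, both below every WT control library. The means were 29.0 ± 2.47 FPKM (SD, n = 3) and 16.4 ± 0.151 FPKM (SD, n = 2), so the level was 43.3% lower. The log2 difference was -0.81 with a standard error of 0.11 and a 95% interval from -1.08 to -0.54 (adjusted p = 0.0491 from limma).

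Xbp1 was thus close to the threshold, and it was the smallest change of the 10 genes called lower. Its direction was the same in all 14 alternative fits, with log2 differences from -1.11 to -0.75 and adjusted p-values from 0.0150 to 0.377 from limma. The call was lost in 9 of them, including the fit without each library in turn, controls as well as those labelled skmNrip1-/-. The table gives a single value per gene, so the spliced and unspliced forms of Xbp1 are summed.

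Xbp1 is also abundant in plasma cells, and the markers of B and plasma cells were near 0 in these libraries. Of the 7 markers listed, 6 were in the table, and none exceeded 0.454 FPKM in any library. Their summed level was 0.732 to 1.21 FPKM in WT control and 0.628 to 1.12 FPKM in the libraries labelled skmNrip1-/-, and Mzb1 was at 0 in 1 library. The markers did not move together. Jchain was at 0.303, 0.195 and 0.161 FPKM in WT control and at 0.139 and 0.0412 FPKM in the other group, and Cd79a was also lower without overlap, at means of 0.133 and 0.0293 FPKM. Ms4a1 was higher without overlap, at means of 0.153 and 0.268 FPKM, and Cd79b and Mzb1 overlapped. All 6 were under the minimum for testing, and their part in the level of Xbp1 was not tested. The summed markers of fibroblasts, which are rich in ER, were at 161 to 233 FPKM and 189 to 256 FPKM, respectively, and overlapped as well. In whole muscle, fewer cells of a type and less RNA per cell cannot be told apart.

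Atf4 (ENSMUSG00000042406, chromosome 15, 80255184 to 80257541), the factor favoured when PERK slows translation, had the highest level of the 10 genes in WT control. It was at 120, 88.6 and 93.0 FPKM in WT control and at 108 and 91.2 FPKM in the libraries labelled skmNrip1-/-. The groups overlapped, and the log2 difference was -0.0078 with a 95% interval from -0.40 to 0.38 (adjusted p = 0.993 from limma).

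Ddit3 (ENSMUSG00000025408, chromosome 10, 127290774 to 127296288) encodes CHOP, a factor of lasting ER stress. It was at 31.8, 28.2 and 26.1 FPKM in WT control and at 33.6 and 25.4 FPKM in the libraries labelled skmNrip1-/-, which were the highest and the lowest of the 5 libraries. The log2 difference was 0.030 with a 95% interval from -0.34 to 0.40 (adjusted p = 0.968 from limma). Exons of Ddit3 overlap those of Mars on the other strand, and Mars was at means of 27.6 and 28.0 FPKM. GENCODE M21 also holds a same-strand gene of the same name (ENSMUSG00000116429) and the antisense Gm4189 over these exons, neither analysed here. The use of strand in counting is not given in the sources used here, so fragments from such pairs cannot be told apart.

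**Figure D2:**
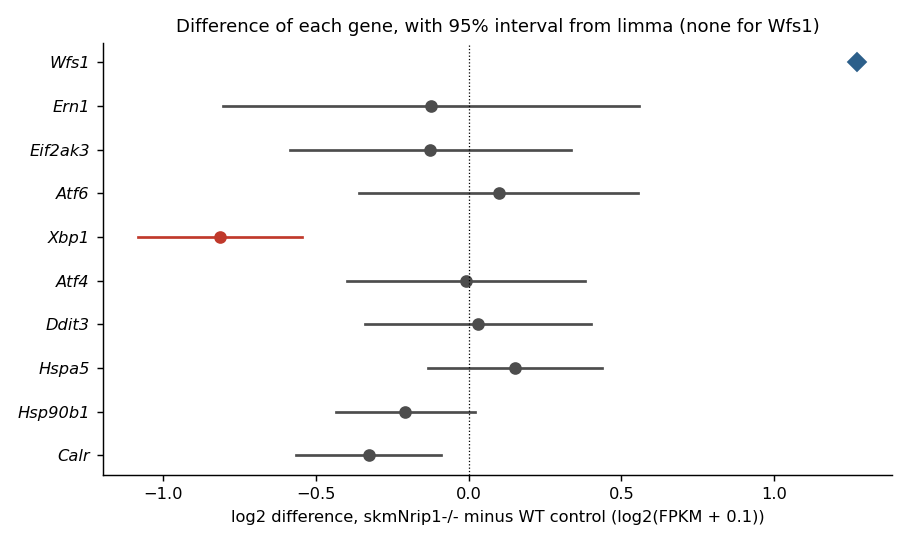
Log2 difference of each gene, libraries labelled skmNrip1-/- minus WT control (x axis, on log2(FPKM + 0.1)), with the 95% interval from limma as a line for the 9 genes other than Wfs1. Xbp1 (red), at -0.81, is the called gene, Wfs1 (diamond) is at 1.27, and the intervals of Ern1, Eif2ak3, Atf6, Atf4, Ddit3, Hspa5 and Hsp90b1 include 0.

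None of the 3 ER chaperones, whose ERSE are shown above, was called. Hspa5 (ENSMUSG00000026864, chromosome 2, 34771970 to 34777547) encodes BiP, the ER Hsp70 that binds the sensors in the unstressed state. It was at 79.7, 93.9 and 96.1 FPKM in WT control and at 97.6 and 101 FPKM in the libraries labelled skmNrip1-/-. Both of these were above every WT control library, by a margin smaller than the WT control spread. The log2 difference was 0.15 with a 95% interval from -0.13 to 0.44 (adjusted p = 0.693 from limma), and rescaling to TPM turned its sign, as given below.

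Hsp90b1 (ENSMUSG00000020048, chromosome 10, 86690209 to 86705509) encodes GRP94, the Hsp90 of the ER. It was at 38.9, 40.6 and 38.3 FPKM in WT control and at 33.3 and 34.7 FPKM in the libraries labelled skmNrip1-/-. Both of the latter were below every WT control library, and the log2 difference was -0.21 with a 95% interval from -0.44 to 0.022 (adjusted p = 0.468 from limma). Exons of Hsp90b1 overlap those of the antisense pseudogene 1810014B01Rik, which was at means of 12.5 and 15.8 FPKM, and of 2 same-strand transcripts not analysed here.

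Calr (ENSMUSG00000003814, chromosome 8, 84841850 to 84846934) encodes calreticulin, a lectin chaperone that also binds ER calcium. It was at 77.3, 71.2 and 70.2 FPKM in WT control and at 58.2 and 57.9 FPKM in the libraries labelled skmNrip1-/-, again without overlap. The level was 20.4% lower, with a log2 difference of -0.33 and a 95% interval from -0.56 to -0.089. Calr was not called (adjusted p = 0.284 from limma).

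In the order of mean FPKM per gene in WT control, Atf4 was followed by Hspa5, Calr, Hsp90b1, Xbp1, Ddit3, Wfs1, Atf6, Ern1 and Eif2ak3. The WT control ranges of neighbours overlapped between Atf4 and Hspa5, between Xbp1 and Ddit3, between Ddit3 and Wfs1, and between Atf6 and Ern1. The other 5 neighbouring pairs did not overlap. Wfs1 and Xbp1 were thus close in WT control, at means of 25.5 and 29.0 FPKM, and apart in the libraries labelled skmNrip1-/-, at 61.3 and 16.4 FPKM.

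The WT control libraries differed in order from gene to gene. Replicate 1 was the lowest of the 3 libraries for Wfs1, Hspa5, Ern1, Eif2ak3 and Atf6, and the highest for Xbp1, Calr, Ddit3 and Atf4. Transcript length moved with several libraries. Relative to the mean of the 5 libraries, the 3037 genes with the shortest transcripts had a median of 0.15 on the log2 scale in WT control replicate 1, and the 3035 with the longest had -0.10. The order was the reverse in WT control replicate 2, at -0.093 and 0.069, and in replicate 2 labelled skmNrip1-/-, at -0.065 and 0.050. Between the groups, the median log2 difference was -0.049 in the former and 0.029 in the latter. The part of length in the differences of the 10 genes was not tested.

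The rest of the pathway was taken from 6 lists with 114 genes, of which 112 were in the table and 108 were tested. None of the 108 was called by limma at an adjusted p of 0.05 or less. An unadjusted p of 0.05 or less was found for 16, of which 14 (13.0%) were lower and 2 were higher in the libraries labelled skmNrip1-/-, where 5.33% of all genes tested had one with a lower level. That count of 14 moved with the libraries used and the scaling. It was 8 without WT control replicate 3, 9 with eBayes without trend, and 56 after rescaling to TPM. The share of all genes tested that were lower with such a p was 3.63%, 5.04% and 29.5% in these fits, respectively. Of the 108, 75 were below 0, and the median log2 difference was -0.059, against -0.00054 for all genes tested.

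The list of ER chaperones and folding enzymes held 7 of these 14. All 20 genes were tested, 17 were below 0, and the median log2 difference was -0.23. All 7 with an unadjusted p of 0.05 or less were lower, a share of 35.0% against 5.33% of all genes tested, and none was called. The 7 became 4 without WT control replicate 3, 3 with eBayes without trend and 13 after rescaling to TPM. In these fits 3.63%, 5.04% and 29.5% of all genes tested were lower with such a p, respectively. The number below 0 was 14 to 17 with any library left out. For 12 of the 20 (60.0%) both libraries labelled skmNrip1-/- were below every WT control library, against 14.4% of all genes tested. For 1, Txndc5, both were above, against 15.8%. The median of the list, centred on the mean of each gene, was 0.061, 0.067 and 0.081 in the WT control libraries. It was -0.12 and -0.13 in those labelled skmNrip1-/-, so the groups did not overlap.

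The largest differences in this list were in Sdf2l1, a partner of the chaperone DNAJB11, and in Manf, a small protein of the ER that is also secreted. Sdf2l1 was at 2.377, 1.996 and 2.525 FPKM in WT control and at 1.617 and 1.195 FPKM in the libraries labelled skmNrip1-/- (log2 difference -0.68, adjusted p = 0.264 from limma). Manf was at 27.3, 20.2 and 26.2 FPKM in WT control and at 15.4 and 16.6 FPKM in the other group (log2 difference -0.60, adjusted p = 0.224 from limma). Neither gene overlapped between the groups. The other 5 genes with an unadjusted p of 0.05 or less, named after their values were seen, were Pdia6, P4hb, Hyou1, Canx and Uggt1, with log2 differences from -0.43 to -0.22. At the other end, Txndc5, a thioredoxin-like folding enzyme, had a log2 difference of 0.25, and Ero1lb had 0.087.

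**Figure D3:**
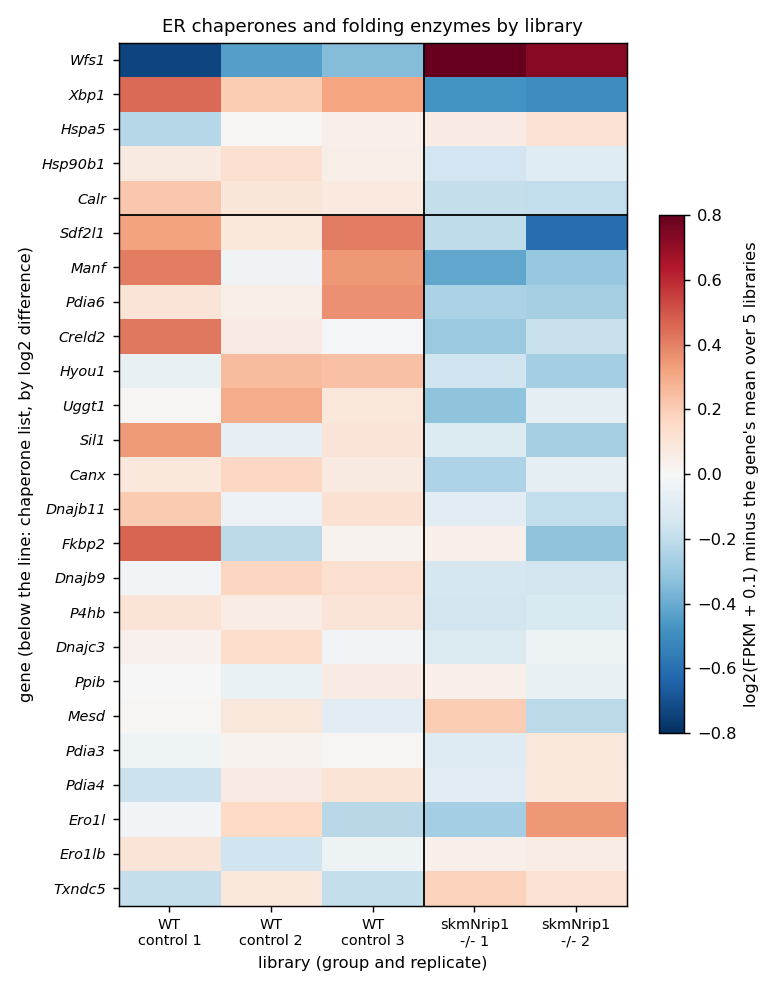
Level of Wfs1, Xbp1, the 3 member chaperones and the 20 genes of the chaperone list (rows) in each library (columns), as log2(FPKM + 0.1) minus the mean of the gene over the 5 libraries (colour). Below the line, genes run from the lowest log2 difference, Sdf2l1 at -0.68, to the highest, Txndc5 at 0.25, and most are blue in the 2 libraries labelled skmNrip1-/-.

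In the list of ER-associated degradation, which returns misfolded proteins to the cytosol, 20 of 21 genes were tested and 16 were below 0. The median log2 difference was -0.094. The lowest were Selenos, a selenoprotein of the retrotranslocation complex, at -0.41, and Ube2g2, a ubiquitin-conjugating enzyme, at -0.40. Both had an unadjusted p of 0.05 or less, and no other gene of the list did. The highest were Ufd1, a cofactor of the ATPase VCP, at 0.16, and Erlec1 at 0.056.

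Of the 18 genes of the translocon and ER exit, which carry proteins into and out of the ER, 14 were below 0 and the median was -0.079. Sec63, a translocon cochaperone, was at 9.44, 6.55 and 7.64 FPKM in WT control and at 5.62 and 5.28 FPKM in the libraries labelled skmNrip1-/- (log2 difference -0.51, adjusted p = 0.319 from limma). No other gene of the list had an unadjusted p of 0.05 or less. Spcs2, a signal peptidase subunit, had -0.35, and the highest were Srpr, the signal recognition particle receptor, at 0.25 and Sec24d, a coat protein of ER exit vesicles, at 0.15.

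Targets of ATF4 and CHOP, among them genes of amino acid supply, lay on both sides of 0. Of 23 genes listed, 19 were tested, with 9 above 0, 10 below 0 and a median of -0.0014. Cebpb, a transcription factor of the same bZIP class, was at 37.8, 33.3 and 47.1 FPKM in WT control and at 24.1 and 20.3 FPKM in the libraries labelled skmNrip1-/- (log2 difference -0.81, adjusted p = 0.144 from limma). Chac1, which breaks down glutathione, was next at -0.67. The highest were Slc7a5, an amino acid transporter, at 0.68 and Phgdh, the first enzyme of serine synthesis, at 0.53. Both had means below 1 FPKM in WT control, and neither had an unadjusted p of 0.05 or less. Of the 19, 4 had one, where 11.9% of all genes tested did. Of these 4, 3 were lower, Cebpb, Chac1 and Ddit4 (-0.48), and 1 was higher, Cebpg (0.35). Ddit4 and Cebpg are named after their values were seen.

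In the list of further stress sensors, related factors and regulators, 16 genes were tested, 12 were below 0 and the median was -0.11. Creb3l2, an ER-bound transcription factor related to ATF6, had the lowest log2 difference at -0.44, and its relative Creb3l1 had the highest at 0.41. Eif2ak4, the eIF2α kinase that senses amino acids, had -0.29, and Nfe2l2, which encodes NRF2, had 0.26. Creb3l2 alone had an unadjusted p of 0.05 or less (adjusted p = 0.377 from limma).

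The partners of wolframin and the genes of contacts between ER and mitochondria had a median above 0, at 0.086 over 15 genes, with 9 above 0. For 5 of the 15 (33.3%) both libraries labelled skmNrip1-/- were above every WT control library, against 15.8% of all genes tested. For 2 (13.3%) both were below, against 14.4%. Atp1b1, a sodium pump subunit, was at 122, 198 and 191 FPKM in WT control and at 247 and 214 FPKM in the libraries labelled skmNrip1-/- (log2 difference 0.46, adjusted p = 0.487 from limma). Hspa9, the mitochondrial Hsp70 that links contact proteins, was at 178, 216 and 189 FPKM in WT control and at 263 and 248 FPKM in the other group (log2 difference 0.40, adjusted p = 0.284 from limma). Of the 15 genes, Hspa9 alone had an unadjusted p of 0.05 or less. The lowest were Ncs1, a calcium sensor, at -0.39 and the calcium channel gene Itpr2 at -0.32. Cisd2, the gene of the second form of Wolfram syndrome, named for that reason after its value was seen, was at 15.97, 19.2 and 17.3 FPKM in WT control and at 19.5 and 19.2 FPKM in the other group (log2 difference 0.15, adjusted p = 0.683 from limma).

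**Figure D4:**
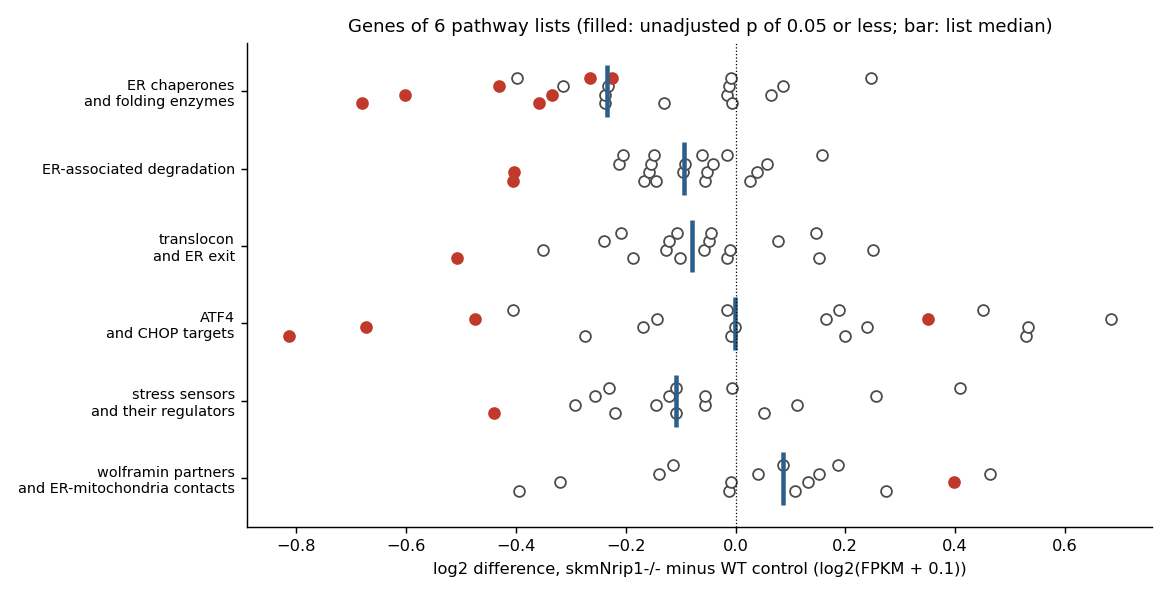
Log2 difference, libraries labelled skmNrip1-/- minus WT control (x axis, on log2(FPKM + 0.1)) for each tested gene (points) of 6 lists (y axis), with list medians as bars and genes with an unadjusted p of 0.05 or less filled. The chaperone list has its median at -0.23 and 7 filled points, all below 0, and the wolframin partner list has its median at 0.086.

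The 5 tested genes whose profile over the 5 libraries lay nearest to that of Wfs1 were Tlnrd1, Musk, Tmem86a, Tmem234 and Vav2. The measure was the root mean square distance between log2(FPKM + 0.1) values centred on the mean of each gene, and it ran from 0.0656 for Tlnrd1 to 0.136 for Vav2. None of them belongs to the lists above. Musk encodes the kinase that gathers acetylcholine receptors at the motor end plate. Musk was at 1.09, 1.49 and 1.76 FPKM in WT control and at 3.49 and 3.30 FPKM in the libraries labelled skmNrip1-/-. Since the likeness is set by the same difference that chose Wfs1, it is given with no test.

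Of the scalings tried, that to TPM turned the sign of some smaller differences. Scaling by the median of ratios between libraries did not. It left Hspa5 at 0.15, Atf6 at 0.098 and Ddit3 at 0.030. It called 45 genes higher and 10 lower, with a median log2 difference of all genes of -0.00054. The deposited scaling gave the same counts and the same median. Scaling by the median of ratios thus left the values nearly as they were and is no separate check of the signs. Rescaling the FPKM to TPM, so that each library sums to the same total, moved the median log2 difference of all genes to -0.29. It gave 30 genes called higher and 63 called lower, where the deposited scaling gave 45 and 10. Relative to that median, Wfs1 was at 1.26, Xbp1 at -0.82, Calr at -0.33, Hsp90b1 at -0.21 and Hspa5 at 0.14. The chaperone list was at -0.24 and the wolframin partner list at 0.10 relative to it. Without that reference, the signs of Hspa5, Atf6, Ddit3 and the wolframin partner list turned to below 0. All 20 genes of the chaperone list were then below 0, where 10421 of the 11913 genes tested on that scale were.

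A marker of fibre type also stood apart between the groups. The summed level of 5 slow-fibre markers was 14.2 to 22.1 FPKM in WT control and 43.8 to 58.9 FPKM in the libraries labelled skmNrip1-/-, and it was carried by Myl2, at 2.03, 1.85 and 9.68 FPKM in WT control and at 42.1 and 33.6 FPKM in the latter. The groups overlapped for the other 4, Myh7, Tnni1, Tnnc1 and Tnnt1. The summed level of the 7 markers of the skeletal muscle fibre was 60760 to 80100 FPKM and 54970 to 57390 FPKM, respectively, so the groups did not overlap. For 3 of the 7 (42.9%), Actn3, Acta1 and Ckm, both libraries labelled skmNrip1-/- were below every WT control library. This held for 14.4% of all genes tested. Actn3 had the largest difference of these, at -0.77 on the log2 scale. For 0 of the 7 both were above, and 0 were called. Summed markers of endothelium, macrophages, adipocytes and Schwann cells overlapped between the groups. The part of fibre type in the levels of Wfs1, Xbp1 and the chaperones was not tested.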

How the data were processed

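RNA-seq libraries of mouse TA were analysed, 3 WT control and 2 labelled skmNrip1-/-, grouped by their labels. The authors quantified reads with Salmon 1.10.2 on mm10, used tximport to obtain gene values, and the table they deposited gives FPKM per gene and library. How the FPKM were computed, and from which annotation release, is not given in the sources used here. The authors' table also holds 2 columns of their DESeq2 1.44.0 comparison, log2 fold changes and adjusted p-values, which were not used.

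FPKM are not counts, so log2(FPKM + 0.1) was fitted with limma 3.58.1 in R 4.3.3 (lmFit, eBayes with trend) over the 12148 genes whose mean reached 0.5 FPKM, with no covariates. Calls needed an adjusted p no higher than 0.05 and at least a 1.2-fold difference. The fit was tested on simulated data. Tables were made in Python 3.11.15 with pandas 2.3.3 and drawn with matplotlib 3.10.9. Positions are from GENCODE M21 (GRCm38), which holds 16996 of the 17015 gene IDs. Promoter sequences are from RefSeq (GRCm38.p6).

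The genes and lists were chosen with earlier results of these data known. Named genes are the 10 members, Nrip1, in each list any called gene and the 2 highest and 2 lowest log2 differences, and the 5 genes nearest to Wfs1. Genes outside this rule are marked or are named for the ERSE or as markers. Alternatives were other pseudocounts, FPKM minimums, scalings and eBayes settings, a replicate block, other thresholds, and leaving out each library.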

Additional observations from a re-analysis of the deposited data

How the results depend on the processing

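Wfs1 was above 0 in all 14 alternative fits, with a log2 difference of 0.97 after rescaling to TPM and of 1.16 to 1.35 with each library left out. Among the other 9 genes, 1 was called in the fit reported. With a pseudocount of 0.01, no FPKM minimum, eBayes without trend or a replicate block, 0 were called, and Xbp1 was at -0.82, -0.81, -0.81 and -0.82. With each library left out, the count ran from 0 to 0 and Xbp1 from -0.87 to -0.75. At an unadjusted p of 0.05 or less, 2 of the 9 and 15 of the listed genes passed with the fold threshold. Of the listed genes, 0 to 0 were called with each library left out, and 1, Ddit4, after rescaling to TPM. Signs turned after rescaling to TPM in Atf6 (-0.19), Ddit3 (-0.27) and Hspa5 (-0.15), and with the replicate block in Ddit3 (-0.036). With each library left out, Atf6 ran from -0.066 to 0.21, Atf4 from -0.13 to 0.13, Ern1 from -0.35 to 0.135 and Ddit3 from -0.17 to 0.23. Over all tested genes the fits called 6 to 55 genes higher and 3 to 63 lower, where the fit reported called 45 and 10. The replicate block called 18 higher and 4 lower. Same-numbered libraries come from mice of different genotype, and the labels name no pairing. Deviations of same-numbered libraries from their group means correlated across genes at 0.065 and 0.095. With 2 libraries labelled skmNrip1-/-, the deviations of these are opposite. The correlations therefore cannot decide whether the numbers pair the samples. The block leaves WT control replicate 3 without weight. Causes of these changes were not tested. Depth is unknown.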
